A study of Canis lupus familiaris with 29 samples.

Results

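Wnt pathway genes were followed in canine pheochromocytoma and paraganglioma (PPGL), tumors of the catecholamine-producing chromaffin cells, and in normal adrenal medulla (NAM). The genes were chosen by a pattern of symbols. It takes the WNT ligands, PORCN and WLS of ligand release, the frizzled receptors with LRP5, LRP6, ROR1 and ROR2, the R-spondins with LGR4, LGR5, LGR6, RNF43 and ZNRF3, and genes of the cytoplasmic and nuclear relay. Of secreted antagonists it takes SFRP1, SFRP4, SFRP5, FRZB, DKK1 to DKK4, WIF1 and NOTUM, but not SFRP2, which is given at the end with other pathway genes and enters no count of members. In this way 67 of the 30951 genes listed were members. They comprised 19 ligands, 2 genes of ligand release, 14 receptors, 10 secreted antagonists, 9 genes of the R-spondin axis, 9 cytoplasmic genes and 4 nuclear genes.

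Whole-tissue RNA sequencing covered 29 samples from dogs, which fell into 10 NAMs and 19 PPGLs, the latter split into group 1 with 7 tumors and group 2 with 12. The NAMs came from healthy dogs used in research, and the PPGLs from client-owned dogs whose tumor tissue was taken at surgery or after euthanasia. Outlying tumors that the authors excluded were not in the table, and the authors drew groups 1 and 2 from a principal component analysis of the same samples, so p-values between the groups describe that split and do not test it. The sample labels gave no age, sex or breed. The counts per sample summed to between 19258054 and 35918182 in NAMs, between 18493540 and 31919833 in group 1 and between 18208718 and 24569667 in group 2.

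Wnt proteins are secreted lipid-modified ligands that bind frizzled receptors together with the co-receptors LRP5 and LRP6. In the canonical branch this binding stops a complex of APC and axin from marking β-catenin for breakdown, and β-catenin then acts in the nucleus with transcription factors of the TCF and LEF family. Other branches run through ROR receptors and cell polarity proteins, and in the adrenal gland WNT4 and β-catenin are best known from the outer zone of the cortex.

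Levels are given as CPM, the counts of a gene relative to the total of its library, after scaling by the trimmed mean of M-values (TMM), which adjusts each library for its composition. Levels of different genes are compared as RPKM, which also divides by the exon length of the gene. A count of 3 was taken as the floor of what a library can show, and it corresponded to 0.0835 to 0.156 CPM in NAMs, 0.0940 to 0.162 CPM in group 1 and 0.122 to 0.165 CPM in group 2. These floors cover counting error only. Differences are log2 fold changes (log2 FC) from edgeR's quasi-likelihood F test, and p-values were adjusted by the Benjamini-Hochberg method over all genes that passed the low-count filter. That test gives no standard error (SE). The SE printed here was derived as the absolute log2 FC divided by the square root of the F statistic. A gene was called at an adjusted p below 0.05 against NAM and below 0.1 between the PPGL groups. Positions are those of the count table on CanFam3.1.

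The comparison of all 19 PPGLs with the 10 NAMs asked which Wnt genes differ between tumor and normal medulla. Of the 67 members, 52 passed the low-count filter, and 9 of them were higher and 16 lower in PPGLs. The higher genes were 17.3% of the members tested, against 22.3% of all 14766 genes tested. The lower genes were 30.8% of the members tested, against 15.2% of all genes tested. Members tested had a median log2 FC of 0.02, and all genes tested a median of 0.13. Among members the largest rises were in the ligands WNT10A and WNT3, the intracellular inhibitor NKD1, the receptor FZD2 and the E3 ligase RNF43, which rested on group 1 replicate 2 and was not tested without it. The largest falls were in the ligands WNT10B and WNT11, the secreted antagonist FRZB and the receptor FZD9. No member had every PPGL above every NAM, which 0.223% of all genes tested did, and no member had every PPGL below every NAM, which 0.481% did.

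Each PPGL group was also set against the same 10 NAMs in a fit of all 3 groups. In group 1, 8 of 53 members tested were higher, against 21.0% of all 15201 genes tested, and 15 were lower, against 14.1%. In group 2, 10 of 53 were higher, against 18.4% of all genes tested, and 12 were lower, against 14.5%. The Mann-Whitney U-test called 18 members lower in group 2, against 18.5% of all genes. With the DESeq2 Wald test 16 were lower, against 16.6%. The comparisons of the PPGL groups with NAM share their control samples, so their values are only set side by side. Between group 1 and group 2, 3 of 50 members tested were higher in group 1, against 3.97% of all 14666 genes tested, and 3 were lower, against 2.95%. These shares of all genes were 1.73% and 1.82% without group 1 replicate 7, with 3 members higher and 2 lower, and 2.53% and 2.09% without group 2 replicate 4, with 3 and 2.

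**Figure D1:**
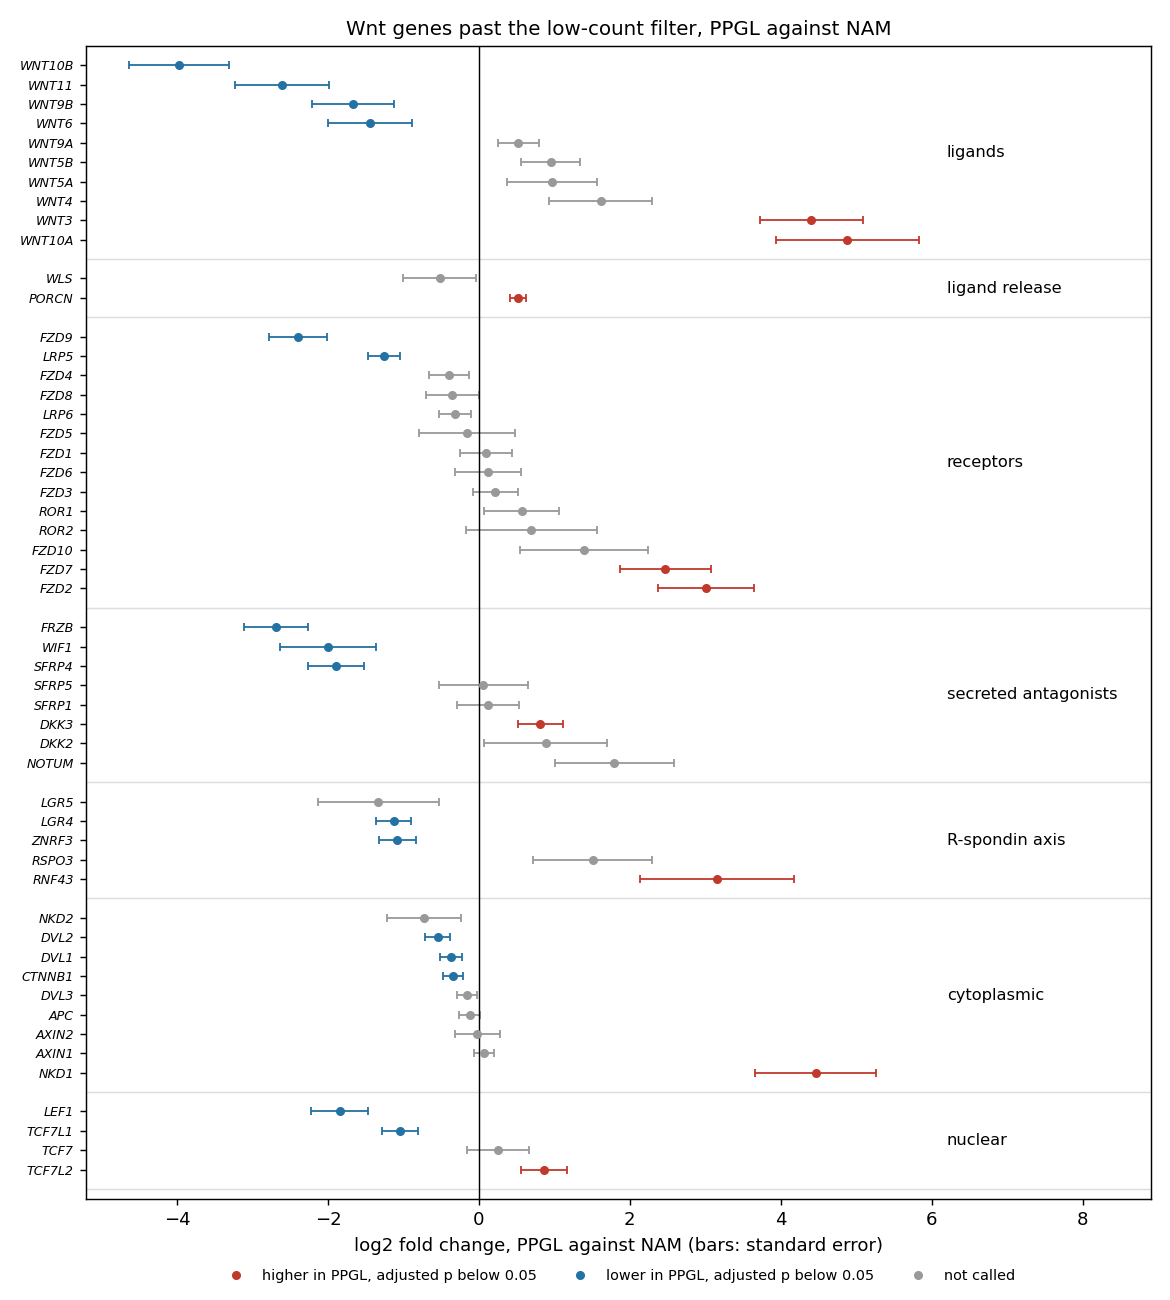
log2 fold change of PPGL against NAM (x axis) for the 52 Wnt genes past the low-count filter, in blocks by role, with bars of 1 standard error and colors for genes called higher (9) or lower (16) at an adjusted p below 0.05. WNT10A at 4.88 and WNT10B at -3.97 mark the ends of the range.

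The tissue labels were checked against marker genes. Summed CPM of 10 chromaffin markers ran from 16311 to 93027 in NAMs (median 30739), from 7749.8 to 118300.0 in group 1 (median 32333) and from 19046 to 99075 in group 2 (median 44079). CHGB, a granin of the secretory vesicles, was the most abundant marker in each group. The mean log2 CPM of the 10 markers, which weighs each marker alike, ran from 8.54 to 10.53 in NAMs. It was lowest in group 1 replicates 3, 5 and 7, at 6.70, 5.07 and 6.80, and 7.95 or more in the other tumors, of which 5 were also below every NAM. The part of this in the Wnt results was not tested. PHOX2A and SYP were higher in PPGLs and PNMT was lower, while 7 chromaffin markers were not called. CHGA was not found by name.

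Markers of the adrenal cortex moved with the groups and have to be kept beside every Wnt value. The summed CPM of 11 cortical markers ran from 13133 to 64195 in NAMs (median 34395), from 37.0 to 1152 in group 1 (median 224) and from 219 to 31991 in group 2 (median 3442). CYP17A1 was the most abundant of them in NAMs and in group 2, and STAR in group 1. No cortical marker was at 0 in all samples of a group, and CYP11B2 was not found by name. Of the 11 markers, 10 were lower in PPGLs than in NAMs, 11 in group 1 and 10 in group 2, and 10 were lower in group 1 than in group 2. Every NAM had a higher cortical sum than every tumor of group 1, and in group 2 replicate 10 stood highest. Cortical content and sample group cannot be told apart here, and fewer cells of a type and less RNA per cell cannot be told apart in whole tissue.

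Other markers also moved. Of 9 fibroblast markers, 6 were higher in PPGLs, and their summed CPM ran from 306 to 738 in NAMs, from 192 to 2460.2 in group 1 and from 438 to 25858 in group 2. The highest value was that of group 2 replicate 11, with COL3A1 as the most abundant gene of both PPGL groups and COL1A2 of NAMs. All 6 proliferation markers were higher in PPGLs, and 5 of them were higher in group 1 than in group 2. Of 8 endothelial markers 5 were lower in PPGLs, and the 4 Schwann or sustentacular markers tested did not pass, with the lowest adjusted p for CDH19 (log2 FC -1.44, adjusted p 0.065). Of 6 leukocyte markers tested 2 were higher and 1 lower, both hepatocyte markers tested were lower, and the 1 kidney marker tested was higher. The part of these cell types in the Wnt results was not tested, except for a fit with a cortical score described further on.

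**Figure D2:**
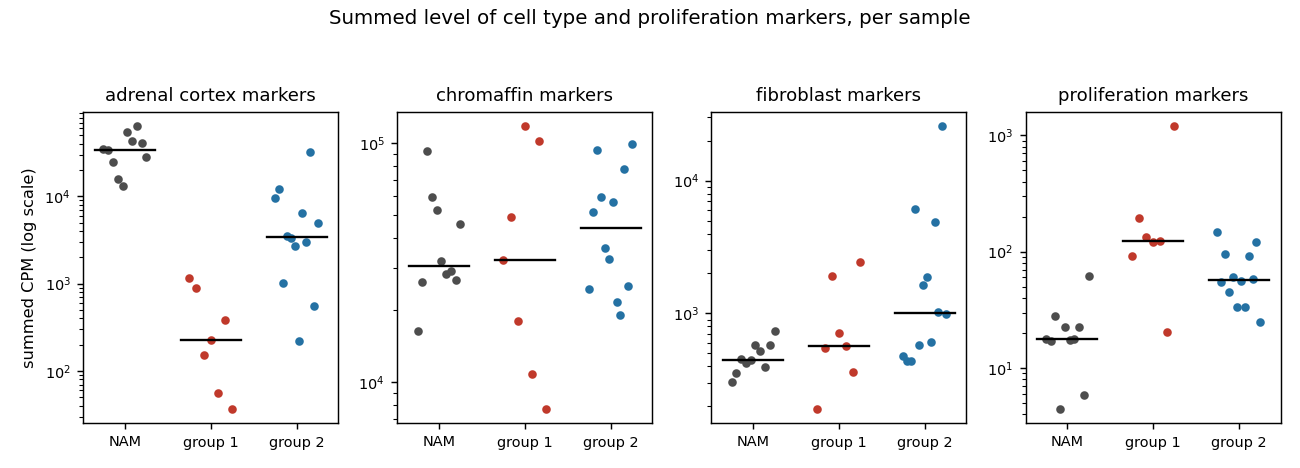
Summed CPM (log scale) of adrenal cortex, chromaffin, fibroblast and proliferation markers in each of the 29 samples by group, with black lines at the group medians. Cortical medians were 34395 in NAMs, 224 in group 1 and 3442 in group 2.

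Of the 19 ligands, 10 passed the filter in the comparison of PPGLs with NAMs. Of these, 2 were higher, against 22.3% of all genes tested, 4 lower, against 15.2%, and 4 not called. WNT3 (ENSCAFG00000013442, chr9:10077567-10124508, minus strand), a ligand of the canonical branch, ran from 0 to 0.883 CPM in NAMs (median 0.369), from 1.11 to 28.2 CPM in group 1 (median 10.2) and from 0.849 to 14.5 CPM in group 2 (median 3.6). In NAMs WNT3 was near the floor, and 18 of 19 PPGLs lay above every NAM, which were all 7 of group 1 and 11 of group 2. Its log2 FC was 4.41 (SE 0.68) in PPGLs, with an adjusted p of 1.6e-05. The log2 FC of WNT3 was 5.10 (SE 0.69) in group 1 and 3.74 (SE 0.63) in group 2, each against NAM. Between the groups the log2 FC was 1.38 (SE 0.59) with an adjusted p of 0.21, which did not pass.

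WNT10A (ENSCAFG00000014987, chr37:25462748-25474764), another ligand that can act through β-catenin, ran from 0 to 0.305 CPM in NAMs (median 0.0383), from 0 to 6.99 CPM in group 1 (median 1.18) and from 0.106 to 13.4 CPM in group 2 (median 1.60). The 10 NAMs held only 22 counts of WNT10A in total, and 13 of 19 PPGLs lay above every NAM while the others overlapped them. The log2 FC was 4.88 (SE 0.95) in PPGLs with an adjusted p of 0.00024, and 8 of 10 NAMs had 3 counts or fewer, so its size is uncertain. Its log2 FC was 4.47 (SE 1.01) in group 1 and 5.07 (SE 0.98) in group 2. Without group 1 replicate 3 the group 1 value was 3.595, and without group 2 replicate 9 the group 2 value was 4.47. Both group calls of WNT10A were lost with the cortical covariate described further on, where the group 1 value changed sign.

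The ligands that fell were low in many tumors but not high in NAMs either. WNT10B (ENSCAFG00000008767, chr27:5601089-5605501) ran from 0.118 to 8.30 CPM in NAMs (median 1.20), from 0 to 0.190 CPM in group 1 (median 0) and from 0 to 0.589 CPM in group 2 (median 0.114). The 7 tumors of group 1 held 4 counts of WNT10B in total, and 12 of 19 PPGLs were below every NAM. This gave a log2 FC of -3.97 (SE 0.66) in PPGLs with an adjusted p of 4.5e-05, and -3.24 without NAM replicate 9. It was -5.89 in group 1, with -5.16 without NAM replicate 9 and -8.43 without group 1 replicate 3, and -3.46 in group 2, with -2.73 without NAM replicate 9. With so few counts in group 1, the group 1 value is not a measure of size.

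WNT11 (ENSCAFG00000005291, chr21:22446051-22463173), a ligand best known from the branches that do not use β-catenin, ran from 1.46 to 10.0 CPM in NAMs (median 5.05), from 0 to 1.51 CPM in group 1 (median 0.0471) and from 0.106 to 3.43 CPM in group 2 (median 0.716). Low values were shared by both PPGL groups, and 14 of 19 PPGLs were below every NAM. The edgeR log2 FC was -2.61 (SE 0.62) in PPGLs with an adjusted p of 0.0016. It was -4.06 (SE 0.89) in group 1 and -2.15 (SE 0.66) in group 2, and without group 1 replicate 7 the group 1 value was -5.49. Leaving out that tumor also brought the difference between the groups, -1.92 with an adjusted p of 0.25, to -3.30 with an adjusted p of 0.092.

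WNT9B (ENSCAFG00000013433, chr9:10149842-10172654) ran from 0.279 to 6.22 CPM in NAMs (median 1.81), from 0 to 2.18 CPM in group 1 (median 0.117) and from 0 to 1.78 CPM in group 2 (median 0.635). The groups overlapped, with 6 of 19 PPGLs below every NAM. The log2 FC was -1.67 (SE 0.54) in PPGLs with an adjusted p of 0.016, and without NAM replicate 9 it was -1.32 with an adjusted p of 0.062. The remaining ligand called lower was WNT6, with a log2 FC of -1.44 and an adjusted p of 0.040, a call lost in 12 of 29 fits with a sample left out, where the adjusted p reached 0.075.

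WNT4 was the ligand with the highest mean RPKM, 11.5 over all samples. WNT4 (ENSCAFG00000014661, chr2:77101300-77127111), which takes part in adrenal and gonadal development, ran from 1.22 to 12.7 CPM in NAMs (median 6.26), from 0 to 33.2 CPM in group 1 (median 14.1) and from 3.11 to 60.5 CPM in group 2 (median 18.8). Tumors were spread to both sides of the NAMs, with 13 of 19 above every NAM and 3 tumors of group 1 below every NAM. Its log2 FC was 1.61 (SE 0.69) in PPGLs with an adjusted p of 0.063, which did not pass. It passed without group 1 replicate 1, 2 or 7, with adjusted p of 0.041, 0.026 and 0.024. The DESeq2 Wald test called WNT4 higher in PPGLs, as it did WNT5B and NOTUM. In group 2 the log2 FC of WNT4 was 1.88 with an adjusted p of 0.045. This call was lost in 15 of 29 fits with a sample left out, where the adjusted p reached 0.077. It was also lost with no filter, a block by replicate number and the cortical covariate described further on. The replicate numbers did not pair samples, with a median correlation of -0.01 over 24 same-number pairs. The block, here and below, thus had no known unit behind it.

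WNT5B and WNT9A were also called higher in group 2, with a log2 FC of 1.26 and an adjusted p of 0.013 for WNT5B. For WNT9A they were 0.72 and 0.047, and its call was lost in 19 of 29 fits with a sample left out. Both calls were lost with a block by replicate number and with the cortical covariate described further on. The differences of these ligands between the groups did not pass, with an adjusted p of 0.24 for WNT5B and 0.35 for WNT9A. In PPGLs as a whole WNT5B had an adjusted p of 0.054 and passed in 5 of 29 fits with a sample left out, and WNT9A had an adjusted p of 0.12 and passed only without group 1 replicate 2, at 0.046. WNT5A, a ligand that signals through ROR receptors, had a log2 FC of 0.97 with an adjusted p of 0.21. The ligands that did not pass the filter in PPGLs against NAMs were WNT1, WNT2, WNT2B, WNT3A, WNT7A, WNT7B, WNT8A, WNT8B and WNT16. WNT8B had no count in any sample, and WNT3A and WNT7B had none in NAMs, with 4 and 17 counts in group 1.

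The ligand genes lay in part side by side in the genome. Within 100 kb of each other lay 4 pairs of member genes, all of them ligands. WNT3 and WNT9B were 25334 bases apart on opposite strands of chromosome 9, with WNT3 higher and WNT9B lower in PPGLs. WNT6 and WNT10A were 6094 bases apart on chromosome 37, with WNT6 lower and WNT10A higher. In the other pairs, WNT1 with WNT10B and WNT3A with WNT9A, WNT1 and WNT3A were not tested.

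**Figure D3:**
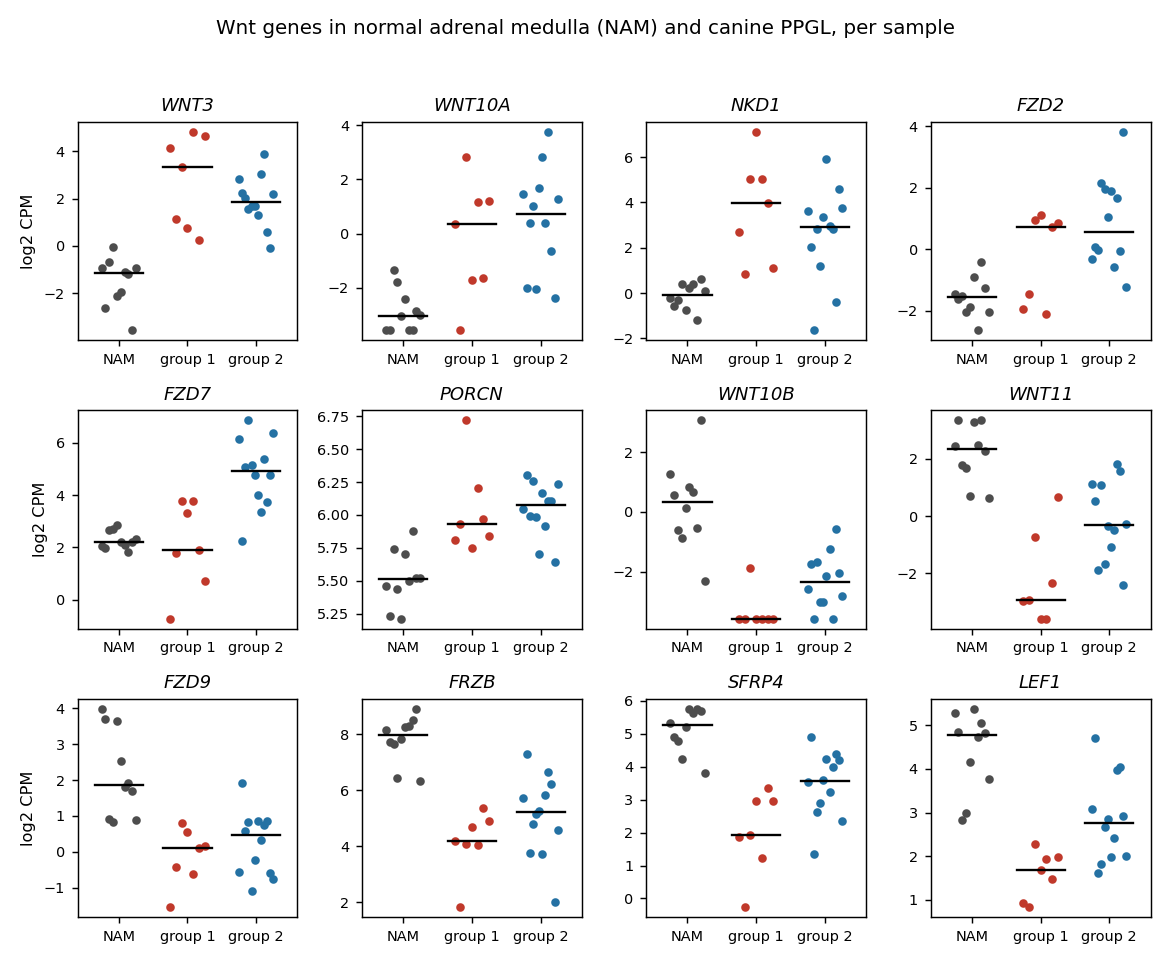
log2 CPM (prior count 2) of 12 Wnt genes in each of the 29 samples, by NAM and by PPGL group, with black lines at the group medians. WNT3 lay above every NAM in 18 of 19 PPGLs and NKD1 in 17, and FRZB lay below every NAM in 17.

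Ligand release was read from 2 genes. PORCN (ENSCAFG00000015435, chrX:41762692-41779476), the enzyme that attaches the lipid to Wnt proteins, ran from 37.0 to 58.7 CPM in NAMs (median 45.5), from 53.8 to 105 CPM in group 1 (median 60.8) and from 50 to 78.9 CPM in group 2 (median 67.4). Tumors were shifted up by a small amount, and 14 of 19 PPGLs lay above every NAM. This gave a log2 FC of 0.52 (SE 0.11) with an adjusted p of 0.00034, and it was 0.53 in group 1 and 0.51 in group 2.

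WLS (ENSCAFG00000020432, chr6:77053237-77317761), which carries the finished ligand to the cell surface, had the higher mean RPKM of the 2, 21.5 against 16.1. It ran from 43.7 to 164 CPM in NAMs (median 102), from 2.39 to 96.4 CPM in group 1 (median 13.4) and from 12.0 to 304 CPM in group 2 (median 68.5). In group 1, 6 of 7 tumors lay below every NAM, while group 2 spread over the NAM range. The edgeR log2 FC was -0.52 (SE 0.49) in PPGLs with an adjusted p of 0.42. In group 1 it was -1.96 (SE 0.58) with an adjusted p of 0.0092, and -2.85 without group 1 replicate 1. The difference between the groups was -1.86 (SE 0.65) with an adjusted p of 0.11, and it passed without group 1 replicate 1 (adjusted p 0.022) or without group 2 replicate 3 (adjusted p 0.086). With all tumors kept, the DESeq2 Wald test called WLS lower in group 1 than in group 2.

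All 14 receptors were tested. In PPGLs 2 were higher, against 22.3% of all genes tested, 2 lower, against 15.2%, and 10 not called. FZD2 (ENSCAFG00000014134, chr9:18888696-18890525), a frizzled receptor of both branches, ran from 0.0762 to 0.662 CPM in NAMs (median 0.253), from 0.149 to 2.08 CPM in group 1 (median 1.58) and from 0.339 to 14 CPM in group 2 (median 1.48). It was close to the floor in NAMs, and 14 of 19 PPGLs lay above every NAM. The log2 FC was 3.01 (SE 0.63) in PPGLs with an adjusted p of 0.00053. It was 1.98 in group 1 and 3.38 in group 2. Without group 2 replicate 11, the tumor with the highest fibroblast and leukocyte marker sums, the group 2 value was 2.78. The group 1 call was lost with the Mann-Whitney U-test and with a block by replicate number. Both group calls were lost with the cortical covariate described further on, where the group 1 value changed sign.

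FZD7 (ENSCAFG00000012407, chr37:11053521-11060821), a frizzled receptor of stem and progenitor cells in many tissues, was lower in group 1 than in group 2, with overlap. It ran from 3.46 to 7.25 CPM in NAMs (median 4.54), from 0.53 to 13.5 CPM in group 1 (median 3.68) and from 4.66 to 115 CPM in group 2 (median 30.5). High values were found in group 2, where 11 of 12 tumors lay above every NAM, while group 1 had 3 tumors above and 3 below every NAM. Its log2 FC was 2.47 (SE 0.60) in PPGLs with an adjusted p of 0.0020. Between group 1 and group 2 it was -2.59 (SE 0.67) with an adjusted p of 0.040, a call lost with a block by replicate number (-2.68, adjusted p 0.248) and with the cortical covariate described further on (-2.70, adjusted p 0.546). Against NAM it was 0.40 with an adjusted p of 0.59 in group 1 and 2.99 with an adjusted p of 7.5e-05 in group 2.

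FZD9 (ENSCAFG00000013159, chr6:6782774-6784558), a further frizzled receptor, ran from 1.69 to 15.7 CPM in NAMs (median 3.55), from 0.263 to 1.67 CPM in group 1 (median 0.992) and from 0.390 to 3.68 CPM in group 2 (median 1.3). Every tumor of group 1 lay below every NAM, as did 9 of 12 tumors of group 2. This gave a log2 FC of -2.39 (SE 0.38) in PPGLs with an adjusted p of 2.8e-05, and it was -2.73 in group 1 and -2.23 in group 2.

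LRP5 (ENSCAFG00000010871, chr18:49439483-49516396), a co-receptor of the canonical branch, had the highest mean RPKM of the receptors, 24.6. It ran from 84.3 to 327 CPM in NAMs (median 196), from 48.5 to 166 CPM in group 1 (median 74.9) and from 45.0 to 169 CPM in group 2 (median 70.6). Both PPGL groups were lower by a like amount, and 12 of 19 PPGLs were below every NAM. The edgeR log2 FC was -1.26 (SE 0.21) in PPGLs with an adjusted p of 4.3e-05, and it was -1.15 in group 1 and -1.33 in group 2. LRP6, the partner co-receptor, had a mean RPKM of 10.8 and a log2 FC of -0.32 with an adjusted p of 0.25. In group 1 LRP6 was lower, with a log2 FC of -0.78 and an adjusted p of 0.016, while its difference between the groups was -0.67 with an adjusted p of 0.16, which passed without group 1 replicate 5 at 0.093.

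FZD6 and FZD5 were higher in group 1 than in group 2. FZD6 (ENSCAFG00000000654, chr13:4733017-4772115), a frizzled receptor known from planar polarity, ran from 14.2 to 45.2 CPM in NAMs (median 28.0), from 10.6 to 131 CPM in group 1 (median 45.5) and from 4.76 to 62.3 CPM in group 2 (median 12.2). The NAMs lay between the PPGL groups by their medians, and the ranges overlapped. The log2 FC of FZD6 between group 1 and group 2 was 1.78 (SE 0.47) with an adjusted p of 0.043, a call lost with the Mann-Whitney U-test (adjusted p 0.155), a block by replicate number (0.364) and the cortical covariate (0.709). Against NAM it was 0.98 with an adjusted p of 0.074 in group 1 and -0.80 with an adjusted p of 0.097 in group 2. Without group 2 replicate 6 both passed, at 0.98 (adjusted p 0.033) and -1.21 (adjusted p 0.0054), and without group 1 replicate 6 the group 1 value was 1.16 (adjusted p 0.029).

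FZD5 (ENSCAFG00000013547, chr37:16123798-16125567) rested on a single tumor. It ran from 3.17 to 12.7 CPM in NAMs (median 7.00), from 0.988 to 67.1 CPM in group 1 (median 3.15) and from 0.285 to 5.98 CPM in group 2 (median 1.74). Group 1 replicate 5, the tumor with the lowest mean log2 CPM of chromaffin markers, held 53.9% of the summed CPM of FZD5 in PPGLs, and the other tumors lay mostly at or below the NAMs. The log2 FC between the groups was 2.596 (SE 0.73) with an adjusted p of 0.055, and without that tumor it was 1.10 with an adjusted p of 0.32. In PPGLs against NAMs the log2 FC was -0.16 with an adjusted p of 0.87, and -1.20 with an adjusted p of 0.032 without that tumor. With all tumors kept, the DESeq2 Wald test and the Mann-Whitney U-test called FZD5 lower in PPGLs. In group 2 FZD5 was lower than in NAMs, with a log2 FC of -1.66 and an adjusted p of 0.026. This call was lost with the block by replicate number and with the cortical covariate.

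FZD10 was called in group 1 against NAM, at 2.42 with an adjusted p of 0.037, and fell to 1.05 with an adjusted p of 0.35 without group 1 replicate 2, which had 39.3 CPM. Its call was also lost without NAM replicate 2, 3, 6, 8 or 9, with an adjusted p of up to 0.060. ROR2, a receptor for WNT5A, had a log2 FC of -0.32 in group 1 and was lower, at -2.90 with an adjusted p of 0.037, without group 1 replicate 2. With all samples kept, ROR2 was called lower in group 1 by the Mann-Whitney U-test and with the block by replicate number. FZD1, FZD3, FZD4, FZD8 and ROR1 were not called in any comparison, and their log2 FC in PPGLs lay between -0.40 and 0.57.

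Of the 10 secreted antagonists, 8 were tested. In PPGLs 1 was higher, against 22.3% of all genes tested, 3 were lower, against 15.2%, and 4 not called. DKK3 (ENSCAFG00000007845, chr21:35033552-35074664), a secreted dickkopf relative whose action on Wnt signaling differs between tissues, had a mean RPKM of 899, the highest of all 67 members. It ran from 481 to 1402 CPM in NAMs (median 745), from 302 to 1940.5 CPM in group 1 (median 1258) and from 406 to 3179 CPM in group 2 (median 1543). The groups overlapped, with 10 of 19 PPGLs above and 3 below every NAM. The log2 FC was 0.81 (SE 0.30) in PPGLs with an adjusted p of 0.031. The call was lost without NAM replicate 1, 6, 7, 8 or 9, with adjusted p of 0.053 to 0.062.

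FRZB (ENSCAFG00000024988, chr36:25884557-25907369), a secreted frizzled-related protein that binds Wnt ligands, ran from 80.6 to 481 CPM in NAMs (median 253), from 3.48 to 41.5 CPM in group 1 (median 18.1) and from 3.93 to 157 CPM in group 2 (median 37.0). Every tumor of group 1 lay below every NAM, as did 10 of 12 tumors of group 2. Its log2 FC was -2.69 (SE 0.42) in PPGLs with an adjusted p of 1.9e-05, and it was -3.56 in group 1 and -2.36 in group 2. Between the groups it was -1.19 with an adjusted p of 0.25.

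SFRP4 (ENSCAFG00000003646, chr18:12017978-12027788), a protein of the same family, ran from 13.9 to 54.0 CPM in NAMs (median 38.5), from 0.753 to 10.1 CPM in group 1 (median 3.71) and from 2.47 to 29.7 CPM in group 2 (median 11.7). Every tumor of group 1 and 7 of 12 tumors of group 2 lay below every NAM. This gave a log2 FC of -1.89 (SE 0.37) in PPGLs with an adjusted p of 0.00025, and it was -2.88 in group 1 and -1.53 in group 2. Between the groups it was -1.35 with an adjusted p of 0.13, and it passed without group 1 replicate 6 (adjusted p 0.089) or without group 2 replicate 3 (adjusted p 0.087). With all tumors kept, the DESeq2 Wald test called SFRP4 lower in group 1 than in group 2.

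WIF1 (ENSCAFG00000000364, chr10:7659491-7726859), an antagonist that binds Wnt ligands outside the cell, ran from 0.708 to 11.4 CPM in NAMs (median 3.6), from 0 to 1.97 CPM in group 1 (median 0.133) and from 0 to 3.41 CPM in group 2 (median 1.27). Of the PPGLs, 11 of 19 were below every NAM. The edgeR log2 FC was -1.998 (SE 0.64) in PPGLs with an adjusted p of 0.015, and -1.67 with an adjusted p of 0.0506 without NAM replicate 6. In group 1 it was -3.17, and -4.42 without group 1 replicate 1. In group 2 it was -1.60 with an adjusted p of 0.077, which did not pass, and between the groups -1.53 with an adjusted p of 0.39. The DESeq2 Wald test and the Mann-Whitney U-test called WIF1 lower in group 2 against NAM.

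The antagonists that were tested and not called in PPGLs were SFRP1, SFRP5, DKK2 and NOTUM. NOTUM, an enzyme that removes the lipid from Wnt proteins, had a log2 FC of 1.80 with an adjusted p of 0.073, and 2.14 with an adjusted p of 0.0497 without NAM replicate 6. Its exons share 540 bases with GCGR on the opposite strand, and whether reads were counted by strand was not given in the sources used here. DKK1 did not pass the filter, with 5 counts in NAMs and 33 in PPGLs, nor did DKK4, with 4 counts in each.

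Of the 9 genes of the R-spondin axis, 5 were tested. In PPGLs 1 was higher, against 22.3% of all genes tested, 2 were lower, against 15.2%, and 2 not called. LGR4 (ENSCAFG00000010188, chr21:47952890-47996288), a receptor for R-spondins, had the highest mean RPKM of the axis, 10.3. It ran from 21.7 to 119 CPM in NAMs (median 52.5), from 10.8 to 30.2 CPM in group 1 (median 18.9) and from 15 to 48.9 CPM in group 2 (median 36). Group 1 was lowest by its median, and the ranges of all groups overlapped. The log2 FC was -1.13 (SE 0.23) in PPGLs with an adjusted p of 0.00043. Between group 1 and group 2 it was -0.77 (SE 0.24) with an adjusted p of 0.083, a call lost in 13 of 19 fits with a tumor left out, where the adjusted p reached 0.137. Scaling by library size also lost this call.

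RNF43 (ENSCAFG00000017526, chr9:32997937-33060313), an E3 ligase that removes frizzled receptors from the cell surface, rested on a single tumor. It ran from 0.0381 to 0.446 CPM in NAMs (median 0.274), from 0.177 to 34.8 CPM in group 1 (median 0.772) and from 0 to 3.06 CPM in group 2 (median 0.375). Group 1 replicate 2 held 75.0% of the summed CPM of RNF43 in PPGLs, and only 8 of 19 PPGLs lay above every NAM. Its log2 FC was 3.16 (SE 1.02) in PPGLs with an adjusted p of 0.015. RNF43 was near the filter, which it passed in only 21 of 29 fits with a sample left out, and not without group 1 replicate 2, so the call could not be tested without that tumor. Between group 1 and group 2 the log2 FC was 3.50 (SE 0.99) with an adjusted p of 0.058, and 0.83 with an adjusted p of 0.61 without that tumor. In group 1 against NAM it was 4.38, and 1.74 with an adjusted p of 0.059 without that tumor.

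ZNRF3, an E3 ligase of the same kind, was lower in PPGLs, with a log2 FC of -1.08 (SE 0.24) and an adjusted p of 0.0010, and its log2 FC was -1.08 in each PPGL group. LGR5, a stem cell marker of other tissues, had a log2 FC of -1.33 with an adjusted p of 0.20 in PPGLs. With the Mann-Whitney U-test or the block by replicate number, LGR5 was called lower in PPGLs. In group 1 LGR5 was lower, at -2.99 with an adjusted p of 0.039. That value was -3.88 without group 1 replicate 3, and the call was lost without NAM replicate 3 or group 1 replicate 1, 2, 4, 6 or 7, with an adjusted p of up to 0.075. RSPO3, an R-spondin, had a log2 FC of 1.51 with an adjusted p of 0.13. RSPO1, RSPO2, RSPO4 and LGR6 did not pass the filter.

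All 9 cytoplasmic genes were tested. In PPGLs 1 was higher, against 22.3% of all genes tested, 3 were lower, against 15.2%, and 5 not called. NKD1 (ENSCAFG00000009841, chr2:64722243-64807875), a target of β-catenin that inhibits dishevelled, ran from 0.356 to 1.47 CPM in NAMs (median 0.877), from 1.69 to 138 CPM in group 1 (median 15.5) and from 0.237 to 60.9 CPM in group 2 (median 7.42). All 7 tumors of group 1 and 10 of 12 of group 2 lay above every NAM, and 1 tumor of group 2 lay below every NAM. This gave a log2 FC of 4.46 (SE 0.81) in PPGLs with an adjusted p of 0.00011. It was 5.17 in group 1, with 4.06 without group 1 replicate 4, and 3.78 in group 2, with 3.16 without group 2 replicate 7. Between the groups it was 1.39 (SE 0.84) with an adjusted p of 0.37, and 0.29 with an adjusted p of 0.88 without group 1 replicate 4.

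CTNNB1 (ENSCAFG00000005204, chr23:10559718-10572927), which encodes β-catenin, had the highest mean RPKM of the cytoplasmic genes, 137. It ran from 456.4 to 782 CPM in NAMs (median 544), from 245 to 672 CPM in group 1 (median 367) and from 304 to 523 CPM in group 2 (median 441). The groups overlapped, with 11 of 19 PPGLs below every NAM. The edgeR log2 FC was -0.34 (SE 0.13) with an adjusted p of 0.039, a call lost in 8 of 29 fits with a sample left out, where the adjusted p reached 0.0996. These are transcript levels, and protein was not measured.

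The dishevelled genes DVL1 and DVL2, whose proteins pass the signal on from frizzled receptors, were also lower. The log2 FC of DVL2 was -0.55 with an adjusted p of 0.0084, and 17 of 19 PPGLs were below every NAM. In group 1 alone DVL2 had -0.45 with an adjusted p of 0.094, which did not pass. It passed without group 1 replicate 2 (-0.72, adjusted p 0.0028) or without group 1 replicate 7 (-0.55, adjusted p 0.044). The log2 FC of DVL1 was -0.37 with an adjusted p of 0.042, a call lost in 15 of 29 fits with a sample left out, where the adjusted p reached 0.103. DVL3 had -0.15 with an adjusted p of 0.39 and NKD2, a relative of NKD1, -0.73 with an adjusted p of 0.25. The members of the complex that marks β-catenin had a log2 FC of -0.12 for APC, 0.07 for AXIN1 and -0.02 for AXIN2, with adjusted p of 0.53, 0.70 and 0.97.

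All 4 nuclear genes were tested. In PPGLs 1 was higher, against 22.3% of all genes tested, 2 were lower, against 15.2%, and 1 was not called. LEF1 (ENSCAFG00000011252, chr32:28517108-28634019), a transcription factor partner of β-catenin, had the highest mean RPKM of them, 5.81. It ran from 6.98 to 41.7 CPM in NAMs (median 27.4), from 1.69 to 4.76 CPM in group 1 (median 3.1) and from 2.99 to 26.2 CPM in group 2 (median 6.73). Every tumor of group 1 lay below every NAM, as did 6 of 12 tumors of group 2. The log2 FC was -1.84 (SE 0.38) in PPGLs with an adjusted p of 0.00039, and it was -2.98 in group 1 and -1.45 in group 2. Between group 1 and group 2 it was -1.53 (SE 0.44) with an adjusted p of 0.062, a call lost without group 1 replicate 2 or 7, at an adjusted p of 0.103 and 0.101.

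TCF7L1, often a repressor among these factors, was lower in PPGLs, with a log2 FC of -1.05 (SE 0.24) and an adjusted p of 0.0013. TCF7L2 was higher, with a log2 FC of 0.86 (SE 0.30) and an adjusted p of 0.024. In group 1 the log2 FC of TCF7L2 was 0.93 with an adjusted p of 0.048, a call lost in 17 of 29 fits with a sample left out, where the adjusted p reached 0.158. The Mann-Whitney U-test also lost it. In group 2 the edgeR log2 FC of TCF7L2 was 0.82 with an adjusted p of 0.054, which did not pass. The DESeq2 Wald test, the Mann-Whitney U-test and scaling by library size called it higher in group 2. TCF7 had a log2 FC of 0.25 with an adjusted p of 0.66.

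Of 9 members known as feedback targets of β-catenin, all tested, 2 were higher in PPGLs (NKD1 and RNF43), against 22.3% of all genes tested. Another 2 were lower (LEF1 and ZNRF3), against 15.2%, and 5 were not called. Their median log2 FC was -0.02, against 0.13 over all genes tested.

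**Figure D4:**
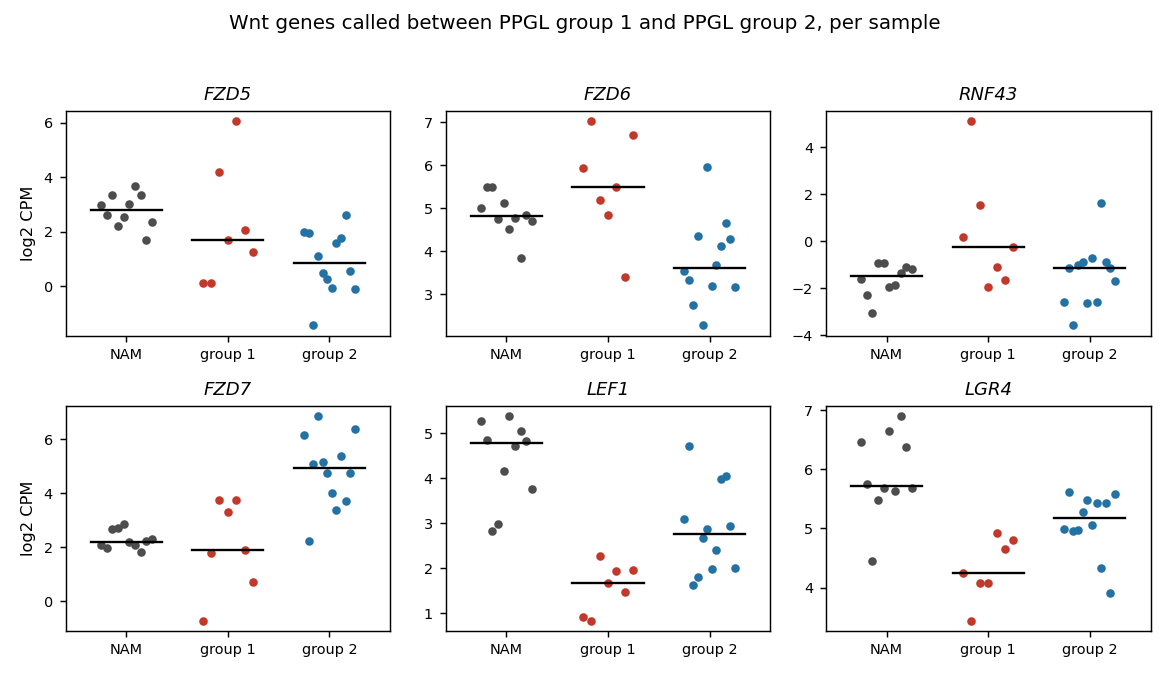
log2 CPM (prior count 2) of the 6 Wnt genes called between PPGL group 1 and PPGL group 2, in each of the 29 samples by group, with black lines at the group medians. FZD5, FZD6 and RNF43 were higher in group 1 and FZD7, LEF1 and LGR4 in group 2, and group 1 replicate 5 for FZD5 and group 1 replicate 2 for RNF43 stand apart.

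The 6 genes called between the tumor groups thus comprised FZD5, FZD6 and RNF43 on the group 1 side and FZD7, LEF1 and LGR4 on the group 2 side. All 6 calls were lost with the block by replicate number and with the cortical covariate, and only that of FZD7 was kept by the Mann-Whitney U-test, at an adjusted p of 0.0842. The replicate numbers did not pair samples, so the block had no known unit behind it. The DESeq2 Wald test did not call RNF43, and it also called FZD10 higher and DKK2, SFRP4 and WLS lower in group 1. Over all 14666 genes tested between the groups, the covariate left 0 higher and 0 lower at an adjusted p below 0.1 in edgeR, and the block 10 and 37, in place of 582 and 433, where the DESeq2 Wald test gave 916 and 877, so the losses were not particular to these genes. With the covariate the log2 FC was 3.73 for FZD5, 1.48 for FZD6, 3.57 for RNF43, -0.44 for LGR4 and -0.13 for LEF1. With the block it was 1.45, 2.17, 2.20, -0.87 and -1.04 in the same order.

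The PPGLs and NAMs were also compared with a cortical score as a covariate, the mean log2 CPM of the 11 cortical markers. The score was 9.23 ± 0.73 (SD, n = 10) in NAMs, 0.70 ± 1.41 (SD, n = 7) in group 1 and 5.95 ± 1.84 (SD, n = 12) in group 2. With the score in the fit, 6 of the 9 members higher in PPGLs remained called, which were WNT3, WNT10A, PORCN, FZD2, FZD7 and DKK3. The log2 FC of WNT3 was then 3.08 with an adjusted p of 0.0025, and that of FZD7 was 3.90 with an adjusted p of 0.00041. NKD1, at 2.19 with an adjusted p of 0.093, RNF43, at -0.39 with an adjusted p of 0.85, and TCF7L2, at 0.67 with an adjusted p of 0.28, did not pass.

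Of the 16 lower members, 4 remained called with the score in the fit. Over all genes tested this fit gave 7.91% higher and 6.43% lower, in place of 22.3% and 15.2%. The 4 members still called were FRZB at -1.47, FZD9 at -1.95, LRP5 at -1.03 and DVL2 at -0.68. LEF1 was then at -0.63 with an adjusted p of 0.32, LGR4 at -0.46 with an adjusted p of 0.30 and SFRP4 at -0.84 with an adjusted p of 0.25. WNT10B was at -2.26, WNT11 at -1.34, WNT9B at -1.63, WNT6 at -0.82, WIF1 at -0.63, TCF7L1 at -0.99, ZNRF3 at -1.01, DVL1 at -0.40 and CTNNB1 at -0.31, none of them called. The score was from 8.12 to 10.33 in NAMs, and every PPGL lay below every NAM but group 2 replicate 10, at 9.14, so cortical content and tumor cannot be told apart in this fit. With the score in the fit of each PPGL group against NAM, no lower member stayed called in either group. Over all genes tested these fits left 4 lower in group 1 and 391 in group 2, in place of 2137 and 2207. FRZB and LRP5 then changed sign in group 1, as did WNT10A and FZD2. The scores of group 1, from -0.88 to 3.09, did not overlap those of NAMs, so these sign changes cannot be read.

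Pathway genes outside the symbol pattern were read from lists of 21 intracellular, 21 surface and secreted, 12 planar polarity and 15 β-catenin-raised genes. Over all genes tested, 22.3% were higher and 15.2% lower in PPGLs, and the counts of each list stand beside these shares. Of 19 intracellular genes tested, 3 were higher and 2 lower. BCL9L, a co-factor of β-catenin, had a log2 FC of -1.19, and CSNK1E and BTRC, a kinase and a ubiquitin ligase subunit of the pathway, had 0.63 and 0.62, with the call of CSNK1E lost with the cortical covariate (adjusted p 0.141) and that of BTRC with the Mann-Whitney U-test (adjusted p 0.0562). MAML3, a transcriptional co-activator, had a log2 FC of 0.12 with an adjusted p of 0.68. AMER1 and CTNNBIP1 were not found by name.

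Of 17 surface and secreted genes tested, 7 were higher, against 22.3% of all genes, and 3 lower, against 15.2%. SFRP2, a secreted frizzled-related protein, ran from 0 to 1.07 CPM in NAMs (median 0.362), from 0.0438 to 114 CPM in group 1 (median 2.00) and from 0.427 to 837 CPM in group 2 (median 7.25). SFRP2 had a log2 FC of 7.09 (SE 1.56) with an adjusted p of 0.00080. Of its relatives, FRZB and SFRP4 were lower in PPGLs, and SFRP1 and SFRP5 were not called. Group 2 replicate 11, which also had the highest fibroblast marker sum (25858 CPM), held 69.2% of the summed CPM of SFRP2 in PPGLs, and without that tumor the log2 FC was 5.48 with an adjusted p of 0.00081. The part of fibroblasts in this value was not tested. GPC3, a cell surface proteoglycan, had a log2 FC of 3.49, a call lost with the Mann-Whitney U-test (adjusted p 0.168), the block (0.0972) and the covariate (0.200), and TRABD2A, a protease that inactivates Wnt proteins, had -2.93, not called with the covariate (adjusted p 0.143).

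Of 10 planar polarity genes tested, 2 were higher and 2 lower, against the same 22.3% and 15.2%. The cadherins CELSR1 and CELSR3 went opposite ways, at -2.05 and 1.33, and DAAM2, which binds dishevelled, had -1.04, with a call lost without NAM replicate 7 (-0.98, adjusted p 0.0506). With the cortical covariate these 3 were not called, at adjusted p of 0.187, 0.150 and 0.396. VANGL2 and FUZ were not found by name.

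Of 12 tested transcripts that β-catenin often raises, 3 were higher in PPGLs, against 22.3% of all genes, and 2 lower, against 15.2%. TBX3, a transcription factor, had a log2 FC of -2.98 and SP5, another, had -2.20, while MYC had 1.47. The call of SP5 was lost with the cortical covariate (0.16, adjusted p 0.884), and that of MYC with the covariate (adjusted p 0.227), the block (0.0712) and the Mann-Whitney U-test (0.133). Between the tumor groups 1 of 11 genes tested was higher in group 1, against 3.97% of all genes, and 2 were lower, against 2.95%. EPHB2, an ephrin receptor, was higher at 2.88 with an adjusted p of 0.023, and 2.21 without group 1 replicate 7. TBX3 at -1.67 and SOX9 at -2.14 were lower, with adjusted p of 0.051 and 0.097, and the call of SOX9 was lost in 13 of 19 fits with a tumor left out, where the adjusted p reached 0.188. All 3 calls were lost with the covariate, where the log2 FC of TBX3 was 0.96, with the block and with the Mann-Whitney U-test. TWIST1 was not found by name. The other lists gave no call between the groups in the edgeR fit of all tumors, though some of their genes passed with a tumor left out. Among these, picked after their values were seen, were CELSR1 (-4.53, adjusted p 0.0114) and TRABD2A (-4.68, adjusted p 0.0229) without group 1 replicate 7.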

How the data were processed

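RNA was measured by sequencing of stranded mRNA libraries from 29 canine tissue samples. The deposited table holds, for every gene, an unnormalized count of exonic reads that the authors had aligned with STAR to CanFam3.1. The name of the table points to featureCounts while the processing notes list HTSeq, and the strand setting and the treatment of multi-mapping reads were not given in the sources used here. Counts were filtered with filterByExpr of edgeR 4.0.16 (minimum count 10, minimum total 15), scaled by TMM and compared by the quasi-likelihood F test in R 4.3.3, with a prior count of 0.125 for log2 FC and of 2 for log2 CPM. PPGLs were compared with NAMs in 1 fit, group 1 with group 2 in the PPGLs alone, and each group with NAM in a fit of all 3 groups. Adjusted p-values over all genes tested had thresholds of 0.05 against NAM and 0.1 between groups. Full values were given for WNT3 and NKD1, members called in PPGLs with a log2 FC beyond 1.5 in either direction, members called between the groups, and the member with the highest mean RPKM of each role; PORCN, outside this rule, was added after its values were seen. From the other pathway lists SFRP2, MAML3 and up to 3 called genes with the largest changes were named. The members and lists, marker lists for cell types included, were chosen with earlier results of these data known. Alternatives were DESeq2 1.42.0 size factors, library size, no filter, a filter of at least 1 CPM, the DESeq2 Wald test, a Mann-Whitney U-test, the cortical score as a covariate, a replicate block, a prior count of 2, and each sample left out in turn. The edgeR fit was run on simulated counts with known fold changes in some genes. The simulation held no difference in cortical content between groups, so it cannot speak on that. The 2 tumors left out by the authors could not be used.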

Additional observations from a re-analysis of the deposited data

Results flagged for a closer look

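Within groups of 4 to 10 samples, 4 of 104 combinations of member and group (3.85%) held a sample set far apart from the rest, where chance gives about 1 in 20. APC reached 202 CPM in group 1 replicate 7, against 124 CPM in the next tumor of the group. WNT10B was at 0.190 CPM in group 1 replicate 3 and at 0 in the other tumors of the group. TCF7L2 was at 1.23 CPM in group 1 replicate 6, below the 7.25 CPM of the next tumor. FRZB was at 3.48 CPM in group 1 replicate 2, below the 16.5 CPM of the next tumor.

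The tumor groups differed from each other by the edgeR test in 6 members. The log2 FC of group 1 against group 2 was 1.78 for FZD6, 3.50 for RNF43 and 2.596 for FZD5. It was -0.77 for LGR4, -1.53 for LEF1 and -2.59 for FZD7. Without group 1 replicate 2 the value of RNF43 was 0.83, and without group 1 replicate 5 that of FZD5 was 1.10, both short of the threshold. The calls of LGR4 and LEF1 were lost in 13 and 2 of 19 fits with a tumor left out.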

How the results depend on the processing

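With each sample left out in turn, the members called in PPGLs against NAMs numbered 8 to 10 higher and 13 to 16 lower. They numbered 6 to 9 higher and 13 to 16 lower in group 1 against NAM, and 8 to 11 higher and 12 to 14 lower in group 2 against NAM. In group 1 against group 2 they numbered 2 to 3 higher and 1 to 5 lower, with 1 lower without group 1 replicate 2 and 5 lower without group 2 replicate 3. Of 76 called log2 FC, 74 stayed called in the same direction with DESeq2's size factors, 73 with library size, 72 with no filter, 74 with the DESeq2 Wald test, 76 with a prior count of 2, 66 with the Mann-Whitney U-test and 55 with the replicate block. With a filter of at least 1 CPM 69 stayed called, and WNT6, WNT10B and RNF43 were not tested. RNF43 also lost its call in PPGLs with the DESeq2 Wald test, the replicate block and the Mann-Whitney U-test, as CTNNB1 and DVL1 did with library size, WNT6 with no filter, and DKK3, TCF7L2, CTNNB1 and WNT9B with the replicate block (adjusted p 0.102, 0.0808, 0.0867 and 0.0574). Adding the cortical score as a covariate, 13 stayed called, and 5 changed sign, none of them called: RNF43 in PPGLs (-0.39), and in group 1 against NAM FZD2 (-0.17), LRP5 (0.74), WNT10A (-1.17) and FRZB (0.60). With that covariate 4 members were lower in PPGLs in place of 16. In group 1 against NAM it left 0 higher and 0 lower in place of 8 and 15, with 2 and 5 at an unadjusted p below 0.05. In group 2 against NAM it left 3 higher and 0 lower in place of 10 and 12, with 7 and 7 at an unadjusted p below 0.05. Between the groups it left 0 higher and 0 lower in place of 3 and 3 in edgeR, with 1 and 8 at an unadjusted p below 0.05, where the DESeq2 Wald test called 3 and 6 and the Mann-Whitney U-test 0 and 1. The replicate block, which took samples with the same number as a unit, also left 0 and 0 between the groups, with 2 and 5 at an unadjusted p below 0.05, and called 4 members higher in group 1 and 6 in group 2 against NAM. The numbers did not pair samples: of 24 same-number pairs 2 correlated by more than 0.1, and the median was -0.01. The Mann-Whitney U-test called 4 members higher and 17 lower in group 1 against NAM, in place of 8 and 15. In group 2 against NAM it called 11 and 18, in place of 10 and 12. In PPGLs against NAMs it called 8 and 18, in place of 9 and 16, with FZD5 and LGR5 gained as lower. Its lower calls over all genes were 2920 in PPGLs and 2806 in group 2, in place of 2246 and 2207. Over all genes, the covariate gave 1168 higher and 950 lower in PPGLs, against 3295 and 2246. Between the groups it gave 0 and 0, the replicate block 10 and 37, the Mann-Whitney U-test 152 and 246 and the DESeq2 Wald test 916 and 877, against 582 and 433. In group 1 against NAM the covariate gave 9 and 4 against 3194 and 2137, with 1921 higher for the replicate block and 1996 for the Mann-Whitney U-test, and in group 2 against NAM it gave 627 and 391 against 2798 and 2207. Library size moved the median log2 FC of all genes in group 1 against NAM to 0.24 from 0.13, and in PPGLs against NAMs no filter moved it to 0.23 and the replicate block to 0.04, also from 0.13. The cause was not tested. Depth was not varied. The calls of members at few counts depended on the filter: with no filter WNT16, WNT7B and RSPO4 were called higher and WNT1 lower in PPGLs.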
